A study of Olea europaea with 24 samples.

Results

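Transcripts were counted in branches of 6 olive trees (Olea europaea), and 17 gene models stood high on 23 May in both irrigation arms and again on 6 June in the dried arm, but low in the other 5 groups of arm and day. They came from 31784 rows with gene model IDs in the authors' scaled table. The labels give irrigation with 1.2 litres per day for the trees of both arms. Trees 3, 9 and 11 were watered, and trees 4, 8 and 12 were dried, with 1 litre per week for 2 weeks and then none for 2 weeks. Each tree gave a library on 7 May, 23 May, 6 June and 29 July, so that 24 libraries fell into 8 groups of 3 trees. No allele, line or age of the trees is given in the labels, and the labels do not tie the weeks of drying to the sampling days.

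The 17 rows were chosen on their measured levels. A level here is log2(scaled value + 1), where the scaled value is the authors' count divided by 1 constant per library. For each group the median level of the 3 trees was taken. A row had to have a range under 1.5 among the medians of the high set (watered 23 May, dried 23 May and dried 6 June), a lowest high-set median of at least 5, and a gap of at least 1.5 between that lowest high-set median and the highest median of the other 5 groups. Up to 150 rows with the largest gaps could be taken, and the 17 are all the rows that met the 3 limits. Their gaps ran from 1.52 to 3.55 with a median of 2.15, or 4.45-fold. Because all 8 group medians entered the choice, the contrast between the high set and the other groups is description and carries no test here. Just inside the limit lay Oeu050488.1 with a gap of 1.54 and Oeu062841.8 with 1.52, and just outside it lay Oeu012455.1 with 1.45 and Oeu006565.1 with 1.45. Between gaps of 1 and 1.5 there were 34 rows that met the other limits.

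When a woody plant meets dry weather it closes its stomata. In hot or dry weather it makes protective proteins and solutes, and draws on stored carbon. In branches that carbon is held mainly as starch, which amylases break down to sugars, and soluble sugars help living wood cells to keep water. Transcripts induced by both stresses are usually sought among heat shock factors, dehydrins, sugar metabolism and hormone signalling. The 17 IDs carry no names in the files, and none of them matched the RefSeq gene table of the assembly O_europaea_v1. They therefore have no gene name, coordinates or known role here, and no sequence could be tied to them. Heat, drought and recovery are named in the title of the series, but the labels do not say which day was hot, so the rows are described by arm and day. Branch identity could not be checked against marker genes for the same reason.

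Depth set how finely these rows could be measured. Total counts ran from 6675360 to 14122826 per library. In each library 12.4% to 90.5% of the count fell in 19 rows that each held over 0.5% of all counts, none of them among the 17. A single count stood for a scaled value of 0.330 to 5.46, and a level of 5 rested on 5.68 counts in dried tree 4 on 6 June but on 93.8 counts in watered tree 3 of the same day. A few libraries limit several of the values below. The 7 May library of watered tree 9 correlated across rows at r = 0.51 and 0.62 with the other trees of its group, which correlated at 0.90. The 23 May library of watered tree 9 correlated at r = 0.46 and 0.59 with its group, where the other pair correlated at 0.82. The 23 May library of watered tree 3 was the highest of its group in 13 of the 17 rows. Values without them are given beside several of the results.

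Oeu015505.1 had the largest gap, 3.55 on the log2 scale or 11.7-fold. On 23 May its level was 8.39, 5.67 and 6.05 in watered trees 3, 9 and 11, and 6.70, 8.37 and 5.18 in dried trees 4, 8 and 12. On 6 June it was 6.17, 8.13 and 5.15 in the dried trees and 0.41, 2.14 and 3.46 in the watered trees. The arms did not overlap on that day. In bulk tissue, fewer cells of a type and less RNA per cell cannot be told apart. On 29 July it had 0 or 1 counts in each dried library and 0 to 9 counts in the watered ones. On 7 May it was at 0.00, 1.59 and 5.87 in dried trees 4, 8 and 12 and at 0.00, 8.31 and 2.50 in watered trees 3, 9 and 11, so that tree 9 lay within the high-set range on a day when trees 3 and 11 lay far below it.

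Oeu032203.1 followed with a gap of 3.44, or 10.8-fold, on few counts. Without the 23 May library of watered tree 9 the gap was 2.20 and without that of tree 3 it was 1.499, and the row missed the limits in both cases. It had 518 counts in the 9 high-set libraries and 41 in the other 15, of which 5 libraries held 0. In the watered trees of 7 May it was at 0 counts in all 3 libraries. On 23 May its level was 7.07 in watered tree 3, 5.67 in tree 9 and 1.13, a single count, in tree 11. The dried trees 4, 8 and 12 were at 6.20, 4.50 and 5.34 on 23 May and at 3.58, 5.63 and 6.13 on 6 June, where tree 4 rested on 2 counts. On 29 July all 6 libraries were close together, between 1.53 and 2.35. Of the 17 rows it was the 1 whose highest group median was that of watered 23 May.

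The most abundant of the rows was Oeu051930.1, with 38078 counts over the 24 libraries against a median of 1607 for the 17. On 6 June it stood at 11.07, 13.91 and 10.18 in dried trees 4, 8 and 12, and at 6.51, 6.37 and 4.64 in watered trees 3, 9 and 11. These means, 11.72 ± 1.95 and 5.84 ± 1.04 (SD, n = 3), lay far apart, and the arms did not overlap. On 23 May the watered trees ran from 6.56 in tree 9 to 13.10 in tree 3, a spread of 3.28 (SD), whereas the dried trees were at 10.33 ± 1.07. Watered tree 3 alone held 19407 of the row's counts on that day, and without this library the gap of 2.15 was 0.30. By 29 July the row was at 6.65 ± 0.53 in dried and 5.90 ± 0.53 in watered trees.

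Oeu050488.1, second in level, had less spread than Oeu051930.1 in the dried arm, and its highest group median was that of dried 23 May. It was at 9.18 ± 0.29 on 23 May and 9.15 ± 0.63 on 6 June in dried trees, against 6.02 ± 0.61 on 7 May and 6.23 ± 0.36 on 29 July (SD, n = 3). In watered trees it was at 7.88 ± 1.60 on 23 May and 5.87 ± 0.16 on 6 June. On 7 May the watered trees 3 and 11 were at 5.79 and 5.75, but tree 9 was at 9.74. The gap of 1.54 was 0.83 without the 23 May library of watered tree 3 and 2.42 without that of tree 9.

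**Figure D1:**
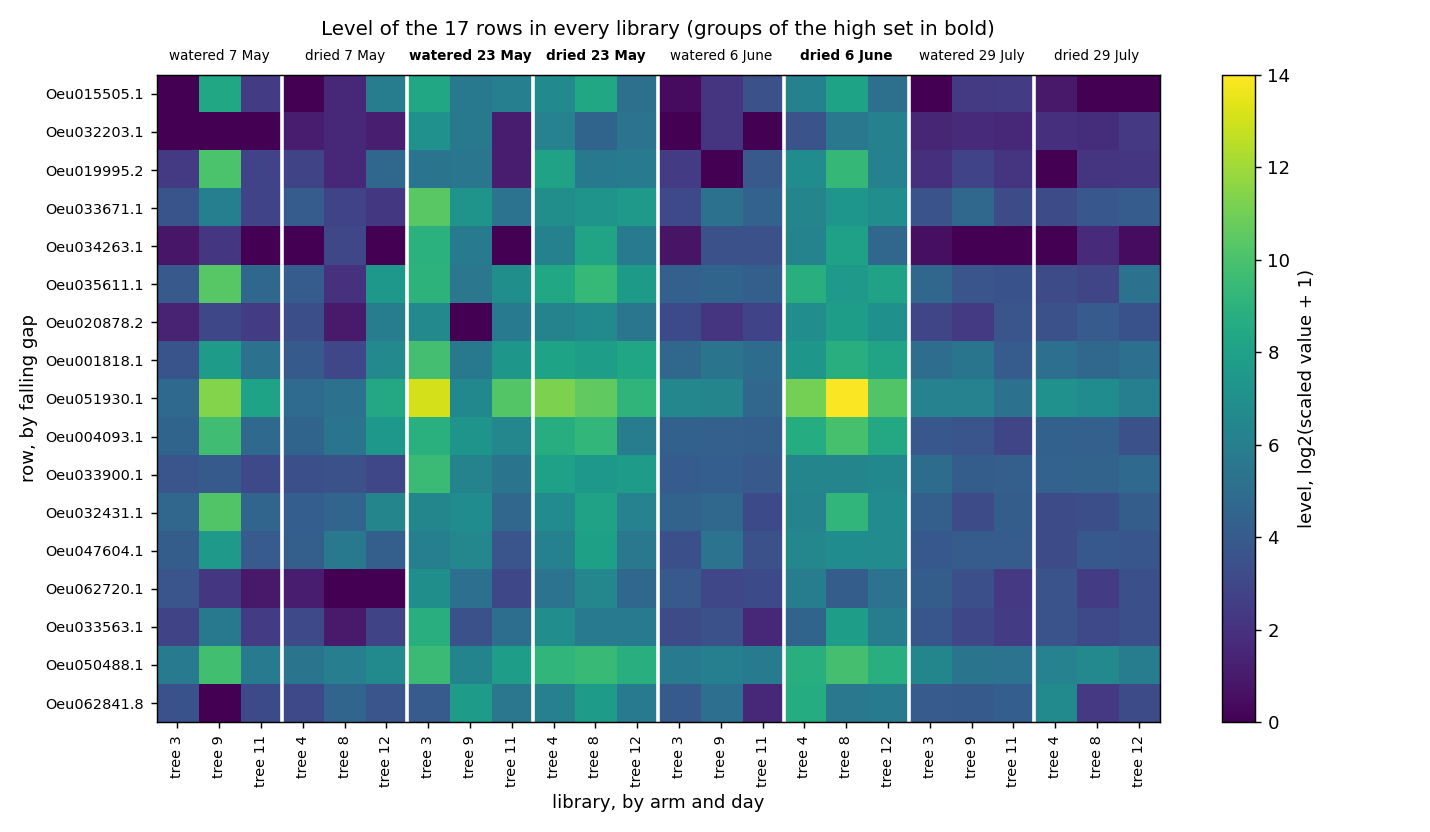
Level, as log2(scaled value + 1) in colour, of each of the 17 rows (vertical axis, by falling gap) in each of the 24 libraries (horizontal axis, by arm, day and tree). Each dried column of 23 May and 6 June holds 15 to 17 rows at a level of 5 or more, and on 7 May the column of watered tree 9 holds 11.

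Taken over the 17 rows, the median level per library ran from 5.37 to 8.84 in the 9 high-set libraries and from 3.00 to 7.53 in the other 15. The overlap came from 1 library. The 7 May library of watered tree 9 was at 7.53, and without it the other 14 ended at 4.66, in dried tree 12 of the same day. On 23 May watered tree 3 had the highest median of all libraries, 8.84, while watered trees 9 and 11 were at 5.77 and 5.37, the lowest of the high set. Dried trees 4, 8 and 12 were at 6.85, 7.84 and 5.81 on 23 May and at 6.47, 7.84 and 6.73 on 6 June. The watered trees of 6 June were at 3.93, 4.30 and 3.46. On 29 July the 6 libraries lay between 3.38 and 3.87. The median over all rows of the scaled table differed between libraries from 4.25 to 5.36 and was 4.25 in the 7 May library of watered tree 9, the lowest.

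Among the high-set groups the highest median was that of dried 6 June in 9 rows, dried 23 May in 7 and watered 23 May in 1. The lowest was that of watered 23 May in 15. The next group below the high set was watered 7 May in 5 rows, dried 29 July in 5, dried 7 May in 3, and watered 6 June and watered 29 July in 2 each, so that no 1 group set the gap. The trees of a group differed more in these rows than in all rows with IDs and a mean level of at least 5. The median SD among trees was 2.08 against 0.705 in watered 23 May, 0.88 against 0.48 in dried 23 May and 0.49 against 0.17 in dried 29 July, given as description.

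**Figure D2:**
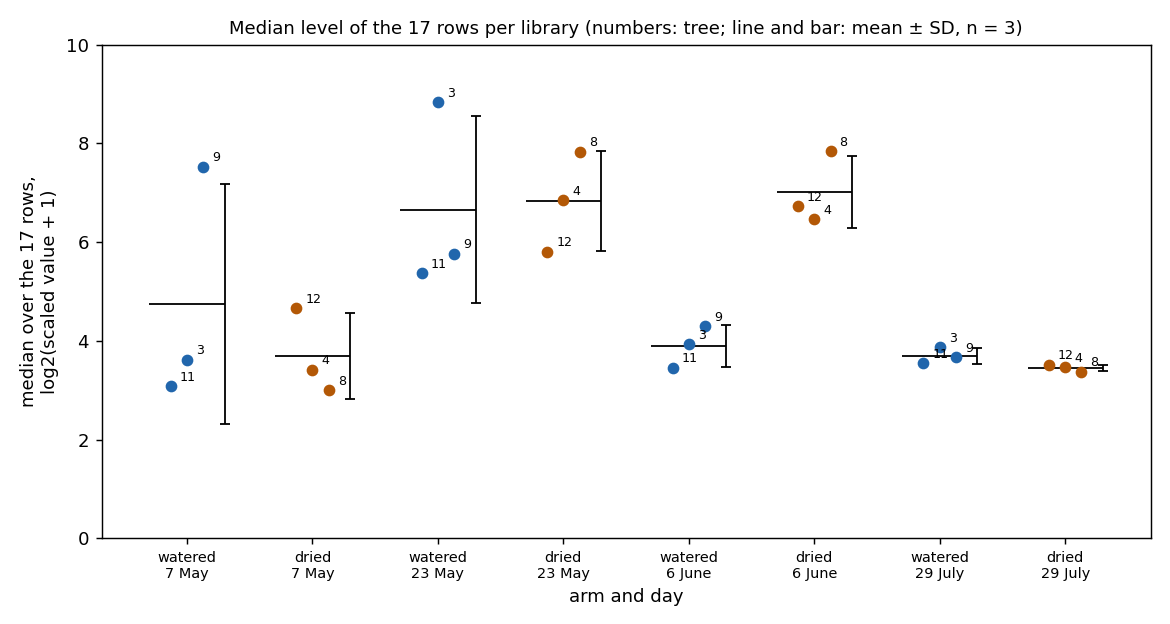
Median level of the 17 rows, as log2(scaled value + 1), in each library, by arm and day, with the tree number beside each point and the mean ± SD of the 3 trees. The groups of 29 July are tight (3.70 ± 0.17 watered, 3.45 ± 0.07 dried), whereas watered 7 May (4.74 ± 2.43) and watered 23 May (6.66 ± 1.90) are spread by 1 tree each.

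The medians that chose the rows do not fix the lowest and the highest tree of a group, so the libraries were also compared one by one. In 1 of the 17 rows, Oeu033900.1, all 9 high-set libraries lay above all other 15. Over the whole scaled table this held for 11 of 31870 rows, or 0.0345%, and since the same libraries chose the rows, nothing is read from the difference. The dried trees were close together in Oeu033900.1, with 7.44 in tree 8, 7.73 in tree 12 and the highest value in tree 4 on 23 May (7.73 ± 0.28, SD, n = 3). On 6 June trees 4, 8 and 12 were at 6.37, 6.38 and 6.52. The watered trees 3, 9 and 11 were at 9.53, 6.28 and 5.37 on 23 May and at 4.05, 4.17 and 3.91 on 6 June. Its highest library outside the high set was watered tree 3 on 29 July, at 4.96. Without the 7 May library of watered tree 9, Oeu033671.1 joined it, with a margin of 0.06 between watered tree 11 on 23 May (5.33) and watered tree 9 on 6 June (5.26). The share over all rows was then 0.0879%.

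In other rows the libraries overlapped widely, with the lowest high-set library furthest below the highest other one in Oeu019995.2 (-8.90) and Oeu020878.2 (-5.90). Oeu032431.1 (-5.59) and Oeu035611.1 (-4.78) also overlapped by several log2 units. Oeu019995.2 was at 10.03 in watered tree 9 on 7 May, above all 9 high-set libraries, and at 1.13 in watered tree 11 on 23 May, where it had 1 count. In dried trees it was nevertheless at 8.09, 5.64 and 5.77 on 23 May and at 6.78, 9.30 and 6.13 on 6 June, against 2.86, 1.59 and 4.66 on 7 May in trees 4, 8 and 12. Oeu020878.2 had 0 counts in watered tree 9 on 23 May and stood at 5.90 in dried tree 12 on 7 May, its highest value outside the high set. Its dried trees were close together at 6.85, 7.84 and 7.05 on 6 June. Over the 17 rows the lowest high-set library was a watered one of 23 May in 15, namely tree 11 in 8, tree 9 in 6 and tree 3 in 1. The highest library outside the high set was watered tree 9 on 7 May in 11.

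By their medians, those 11 rows stood above the other 6 in every library except dried tree 4 on 29 July (3.20 against 3.52). The size of the difference varied between libraries, and some are given below. It was small in dried tree 4 on 6 June, with medians of 6.78 and 6.32, and in watered tree 3 on 29 July, with 3.87 and 3.48. In watered tree 9 on 7 May it was fixed by the division of the rows. At a level of 5 or more in watered tree 9 on 7 May were Oeu015505.1, Oeu019995.2, Oeu033671.1, Oeu035611.1, Oeu001818.1, Oeu051930.1, Oeu004093.1, Oeu032431.1, Oeu047604.1, Oeu033563.1 and Oeu050488.1, with a median of 9.69. The remaining rows, Oeu032203.1, Oeu034263.1, Oeu020878.2, Oeu033900.1, Oeu062720.1 and Oeu062841.8, were between 0.00 and 3.95 there. Of the 11 rows 7 also reached a level of 5 in dried tree 12 on 7 May, with a median of 6.37, while 1 of the 6 did, with a median of 2.07. In dried tree 4 of that day the medians were 4.08 and 2.08, in dried tree 8 they were 3.00 and 2.30, and in watered tree 11 they were 4.55 and 1.73. In dried tree 8 on 6 June they were 8.79 and 6.01. The division was made after the values were seen and is given without a test.

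Among the 11, Oeu035611.1 was at 8.45 ± 0.88 on 23 May and 8.15 ± 0.66 on 6 June in dried trees (SD, n = 3), and on 7 May at 10.35 in watered tree 9 and 7.49 in dried tree 12. Oeu001818.1 was the closest among the dried trees of 23 May, at 8.12, 7.84 and 8.20 in trees 4, 8 and 12. It lay between 4.08 and 5.45 in all 6 libraries of 29 July. Oeu004093.1 was at 9.03 ± 0.80 in dried and 4.30 ± 0.06 in watered trees on 6 June, the latter at 4.36, 4.30 and 4.25. Oeu032431.1 and Oeu047604.1 were at 10.22 and 7.53 in watered tree 9 on 7 May, above their dried 6 June means of 7.41 ± 1.56 and 6.66 ± 0.17. Oeu033563.1 had the lowest high-set median of the 17, 5.05 in watered trees on 23 May, where tree 9 held 3 counts and tree 3 held 1010.

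Among the 6, Oeu034263.1 had the fewest counts outside the high set, 31 in 15 libraries with 0 in 6 of them, against 1470 counts in the high set. It was at 8.95 in watered tree 3 on 23 May and had 0 counts in tree 11 of the same group. Oeu062720.1 had 425 counts in the high set and was the lowest of the 17 by the median of its high-set medians, 5.31. In dried trees it had 2, 0 and 0 counts on 7 May and 12, 13 and 26 counts on 29 July. The levels of Oeu062841.8 correlated with the median of the other 16 rows at r = 0.31 over the 24 libraries, where the other rows were at r = 0.63 to 0.93. Without the 7 May library of watered tree 9 and the 23 May library of watered tree 3 it was at r = 0.68, above the 0.66 of Oeu062720.1. It was at 6.65 in dried tree 4 on 29 July against 2.31 and 3.20 in trees 8 and 12, and at 3.99 in watered tree 3 on 23 May, where the other rows were at 5.41 or more.

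The rows also moved together within groups. The medians that chose the rows come from the same libraries, so such movement is not independent of the choice. With each group's mean subtracted, the deviations of the 24 libraries correlated between rows at a median r of 0.44 over 136 pairs, 115 of them positive. Over all 13686 rows with IDs and a mean level of at least 5, a set not matched to the 17 in level, the median was 0.01. Without watered tree 9 on 7 May and watered tree 3 on 23 May the median of the 17 was 0.14, with 87 pairs positive. The points share library depth and scaling, and the correlations are given as description. Tree 3 on 23 May was the highest of its group in 13 of 17 rows, by a median of 2.91 over the mean of the other trees. Tree 9 on 7 May was the highest in 14, by a median of 3.30. Over all rows of a mean level of at least 5 those deviations had medians of 0.05 and -0.22.

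On 23 May both arms belonged to the high set. The difference of group medians, dried minus watered, was positive in 16 of 17 and had a median of 0.55, against -0.08 over all rows of the table. The choice of rows held these differences under 1.5. The largest were those of Oeu004093.1 and Oeu050488.1, each at 1.46, and the lowest those of Oeu032203.1 (-0.33) and Oeu033671.1 (0.01). The dried trees lay wholly above the watered ones in 1 of 17 rows, Oeu019995.2, and wholly below in 0, against 5.36% and 8.28% of all rows. EdgeR called none of the 17 in this contrast and none of 29107 rows (0%), and its unadjusted p was under 0.05 for 0 of 17 and 3246 of 29107 rows. DESeq2 called 0 of 17 and 0.681% of all rows. The edgeR log2 fold changes were positive in 8 rows and negative in 9, with a median of -0.22, and those of DESeq2 had a median of 0.05. The median over the 17 rows thus had opposite signs in the group medians and in the edgeR fit, so no order of the arms is read from it. EdgeR likewise called 0 of 17 and 0% of all rows for the interaction of arm and the change from 7 May to 23 May, where 4 of 17 and 2752 of 29107 rows had an unadjusted p under 0.05, and DESeq2 called 0 of 17 and 0.477% of all rows.

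From 23 May to 6 June the medians of the dried trees differed in both directions. The difference of group medians was positive in 10 rows and negative in 7, with a median of 0.04. Oeu019995.2 gained most (1.01) and Oeu020878.2 next (0.80), while Oeu033900.1 lost 1.35 (-1.35) and Oeu015505.1 stood at -0.53. The dried libraries of 6 June lay wholly below those of 23 May in 1 row, Oeu033900.1, and wholly above in 1, Oeu020878.2, against 5.45% and 7.17% of all rows. EdgeR called none of the 17 and 1 of 29107 rows (0.00344%). Its unadjusted p was under 0.05 for 0 of the 17 and 2740 of 29107 rows, and DESeq2 called 0 of the 17 and 0.556% of all rows. A bounded difference of this kind cannot show that the days were alike.

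The contrasts between the high set and the other groups were used to choose the rows, so their values are description. From 23 May to 6 June the differences of medians in watered trees ran from -5.67 to -1.58, with a median of -2.57, and 8 of 17 rows were lower without overlap, as were 932 of all 31870. On 6 June the dried medians exceeded the watered by 1.86 to 5.63, with a median of 3.20 or 9.21-fold. The dried trees lay wholly above the watered in all 17 rows, and 9.32% of all rows did likewise. From 6 June to 29 July in dried trees the differences ran from -6.17 to -1.92, with a median of -3.39, and 16 of 17 rows were lower without overlap, as were 5769 of all 31870.

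Between groups that both lay outside the high set, the choice of rows did not fix the difference, and these contrasts were tested with edgeR over all 29107 rows that passed a filter on low counts. All 17 rows passed it. On 29 July the dried medians exceeded the watered in 10 rows and lay below in 7, with a median difference of 0.21 and a range of -2.39 to 0.82. EdgeR called 0 of 17 and 0% of all rows. Its unadjusted p was under 0.05 for 0 of 17 and 41 of 29107 rows, and DESeq2 called 0 of 17 and 0.0432% of all rows. Oeu050488.1 and Oeu051930.1 had the largest positive differences (0.82 and 0.63) and Oeu015505.1 and Oeu062841.8 the lowest (-2.39 and -0.85), the former with 0, 0 and 1 counts in dried trees. The dried trees were wholly above the watered in 1 of 17 rows and wholly below in 0, against 3.46% and 4.76% of all rows.

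Between the arms on 7 May edgeR again called 0 of 17 and 0% of all rows. Its unadjusted p was under 0.05 for 6 of 17, of which 2 were higher in dried trees, and for 990 of 29107 rows. DESeq2 called 0 of 17 and 0.107% of all rows. The difference of medians was positive in 7 rows and negative in 10, with a median of -0.02. The edgeR log2 fold changes were positive in 4 rows and negative in 13, with a median of -1.60. On that day watered tree 9 was the highest of its group in 14 of the 17 rows. The unadjusted p-values without that library are not given here, so no order of the arms on 7 May is read from them. From 7 May to 29 July edgeR called 0 of 17 and 0% of all rows in each arm. In dried trees 3 of 17 had an unadjusted p under 0.05, of which 1 was higher on 29 July, as had 906 of 29107 rows, and DESeq2 called 0 of 17 and 0.113% of all rows. In watered trees 9 of 17 had such a p, 1 of them higher, as had 2390 of 29107 rows, and DESeq2 called 5 of 17 lower, where it called 1.43% of all rows lower. From 7 May to 6 June in watered trees edgeR called 0 of 17 and 0% of all rows, and 7 of 17 had an unadjusted p under 0.05, as had 2623 of 29107 rows. DESeq2 called 4 of 17 lower there, against 0.788% of all rows. Without the 7 May library of watered tree 9, DESeq2 called 0 of 17 in both of these contrasts, and 0.037% and 0.0452% of all rows. From 6 June to 29 July in watered trees neither tool called any of the 17 (edgeR 0% of all rows), and 0 of 17 had an unadjusted edgeR p under 0.05, against 1184 of 29107 rows.

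Averaged over the arms, the medians of Oeu062720.1 and Oeu032203.1 lay furthest above 7 May on 29 July and those of Oeu004093.1 and Oeu035611.1 furthest below. In dried trees Oeu062720.1 was at 0.37 ± 0.63 on 7 May and 3.17 ± 0.58 on 29 July, and Oeu004093.1 at 5.78 ± 1.51 and 4.03 ± 0.49 (SD, n = 3). The dried trees of 29 July lay wholly above those of 7 May in 4 rows and wholly below in 3, against 10.4% and 7.35% of all rows. Neither of the 2 rows was called by edgeR in this contrast.

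EdgeR calls in the contrasts that chose the rows are likewise description. From 7 May to 23 May in dried trees Oeu033900.1 (log2 fold change 4.63 ± 0.80) and Oeu062720.1 (6.50 ± 1.27, SE, n = 3 trees per day) were called, 2 of 17, where edgeR called 0.0515% of all rows higher and 0.0928% lower. Both were called again from 7 May to 6 June in dried trees (3.26 ± 0.77 and 6.17 ± 1.26), where it called 1.09% of all rows, and 0.21% of all rows higher. With the tree as a block 0 of 17 were called there. In watered trees Oeu033900.1 was called from 7 May to 23 May (4.93 ± 0.82), 1 of 17, where 0.0206% of all rows were called, 0.0103% as higher. It was not called there with the tree as a block, nor with the 7 May library of watered tree 9 left out. Between the arms on 6 June edgeR called 0 of 17 and 0.103% of all rows, 0.0206% higher and 0.0825% lower. The unadjusted p was under 0.05 for 16 of 17 and for 7059 of 29107 rows, and the edgeR adjusted p began at 0.0569. DESeq2 called 13 of 17 higher, where it called 8.21% of all rows and 2.9% of all rows higher. With the 7 May library of watered tree 9 left out, edgeR called 12 of 17 higher. Its calls over all rows then went from 30 of 29107 to 3405 of 30479, of which 1226 were higher. That contrast holds no library of 7 May, but all groups of the fit share an estimate of the spread, which every library enters. The edgeR counts of 0 in other contrasts come from the same fit with that library included. From 6 June to 29 July in dried trees 13 of 17 were called lower, where 5.58% of all rows were, and 7 with the tree as a block. For the interaction of arm and the change from 7 May to 6 June edgeR called 5 of 17, all positive, where 0.876% of all rows were called positive and 0.189% negative.

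How far the choice rested on single trees was read by applying the same limits with each tree left out. Between 1 and 10 of the 17 rows met them, and no row met them in all 6 settings. Oeu015505.1 and Oeu001818.1 met them in 5, and Oeu019995.2 in 0. The fewest rows were left without watered tree 3, when 1 met the limits, Oeu062841.8, and the gap was above 0 in 8 of the 17. Without its 23 May library alone, 3 of 17 met the limits and 15 had a gap above 0. Without any 1 of trees 4, 8, 9 and 12 the gap stayed above 0 in all 17, and without tree 11 in 14. Oeu033900.1 had the narrowest range, with gaps from 1.37 to 1.85.

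**Figure D3:**
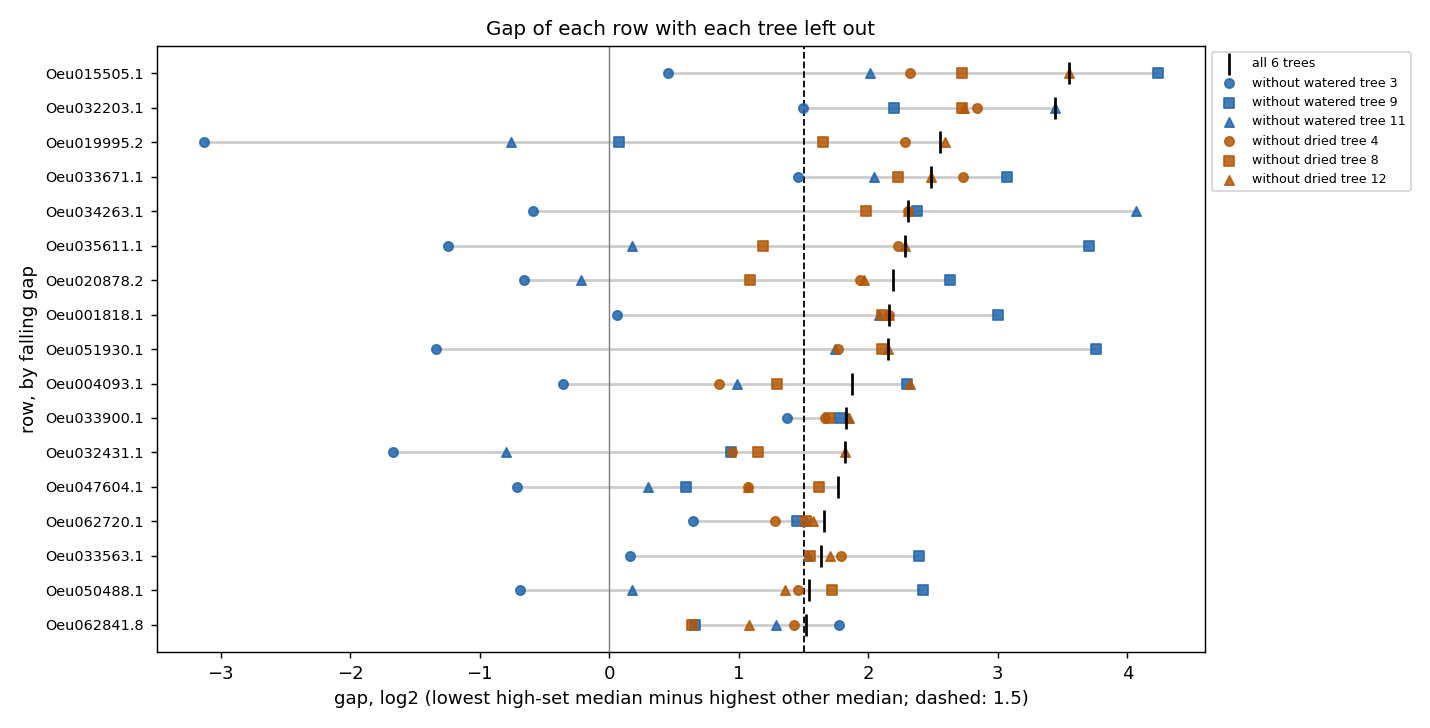
Gap of each of the 17 rows on the log2 scale (horizontal axis) with all 6 trees and with each tree left out, blue for watered and brown for dried trees, with the limit of 1.5 dashed and 0 as a grey line. Leaving out watered tree 3 moves 9 of the 17 rows to 0 or below, while the gaps of Oeu033900.1 stay between 1.37 and 1.85.

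The authors gave short names to 97 rows, most of them names of enzymes of starch and sugar metabolism, of which 86 are in the scaled table. None of these could be a member, since their names are not IDs, but 1 of them met the same limits. This was bamylase3, by its name a beta-amylase, an enzyme that releases maltose from starch. Its gap was 2.08. Its level on 6 June was 6.98, 9.48 and 8.15 in dried trees 4, 8 and 12 and 5.13, 4.98 and 4.25 in watered trees 3, 9 and 11, with no overlap. On 23 May it was 7.92, 8.87 and 7.08 in the dried trees but 10.11, 4.79 and 7.07 in the watered trees, where tree 9 held 8 counts. The same libraries stood apart on 7 May, watered tree 9 at 9.50 and dried tree 12 at 8.35, against 3.17 to 4.97 in the other 4. On 29 July it was at 3.60 ± 0.41 in dried and 3.29 ± 0.70 in watered trees (SD, n = 3).

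Bamylase3 was also the named row most like the 17 in its pattern, at r = 0.91 over the 24 libraries with their median level, and at r = 0.88 without watered tree 9 on 7 May and watered tree 3 on 23 May. Next came bamylase10 (r = 0.83), bamylase2 (r = 0.83), invertase11 (r = 0.83) and invertase2 (r = 0.77), the invertases being enzymes that split sucrose into glucose and fructose. Without the same 2 libraries bamylase10 was at r = 0.82, invertase2 at 0.82, bamylase2 at 0.82, bamylase11 at 0.79 and invertase11 at 0.78, so that the order differed. The 4 named with all libraries missed the limits. Bamylase10 and bamylase2 had gaps of 0.85 and 0.75 and ranges of 2.60 and 2.17 within the high set. They were far more abundant in counts, with 102139 and 132037 against 4850 for bamylase3, and counts of different genes are not compared per length here. In watered trees on 6 June bamylase10 was at 8.94, 10.80 and 12.31 and bamylase2 at 9.37, 10.84 and 12.90 in trees 3, 9 and 11, so that tree 11 was the highest in both, while the 17 rows had their lowest library median of that group in tree 11. Invertase2 stood at 10.55 ± 1.37 in dried trees on 6 June but at 5.49 ± 0.77 in watered trees on 23 May (SD, n = 3), below its 13.13 in watered tree 9 on 7 May.

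**Figure D4:**
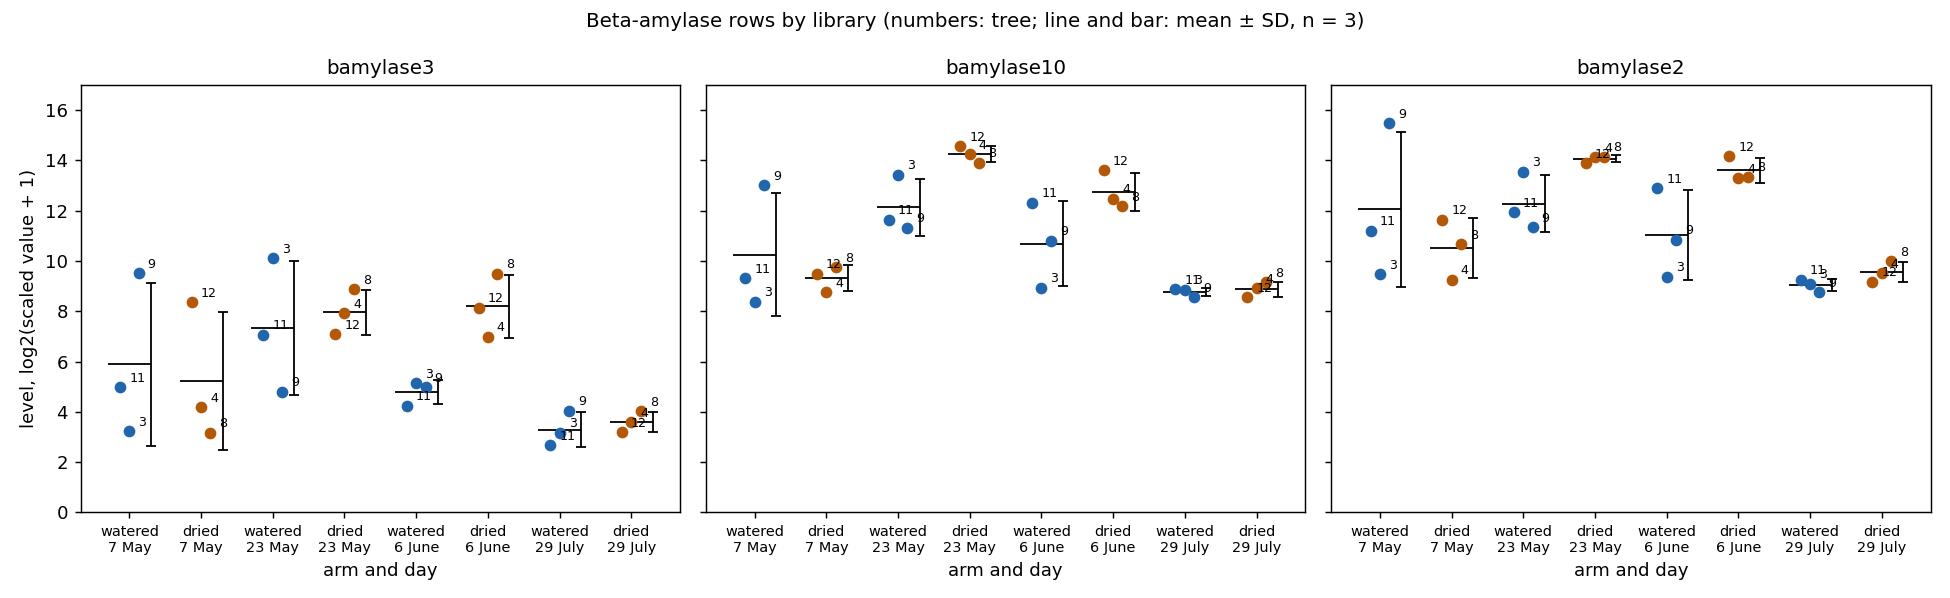
Level of bamylase3, bamylase10 and bamylase2, as log2(scaled value + 1), in each library by arm and day, with the tree number beside each point and the mean ± SD of the 3 trees. Bamylase3 is high in all 3 dried trees on 23 May and 6 June and low in all 3 watered trees on 6 June, whereas bamylase10 and bamylase2 spread on 6 June in watered trees from 8.94 to 12.31 and from 9.37 to 12.90.

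By family, the correlation with the median of the 17 rows was positive in all 5 invertase rows of the scaled table (median r = 0.72) and negative in all 7 agp rows (median r = -0.66). It was positive in 5 of 13 bamylase rows, 3 of 10 starchsyn rows (starch synthases by name), 4 of 11 sucsynthase rows (sucrose synthases by name), 3 of 8 hexokinase rows and 2 of 5 gpt rows. It was negative in all 3 sbe, 3 starchp, 3 mex and 2 dpe rows, whose short names are not explained in the files. These correlations share libraries and scaling and are given as description. A positive correlation did not mean that a row had the pattern, and 1 of the 5 invertase rows had a gap above 0. Invertase9 (r = 0.33) held 98 counts in all, and its median on 6 June was 0 in dried and 1.73 in watered trees. Invertase1 (r = 0.57) had a median of 6.85 in dried trees on 6 June, but its lowest high-set median was 0.97. In edgeR 87 named rows were tested. From 6 June to 29 July in dried trees 20 of them rose and 6 fell, with 7.5% of all rows called higher and 5.58% lower. Those that fell included 3 of 13 bamylase rows and 3 of 5 invertase rows, and those that rose included 4 of 7 agp, 4 of 11 sucsynthase and 3 of 10 starchsyn rows. Bamylase3 itself was chosen here for its pattern, and its fold is left as description.

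In the authors' deposited table the comparison named ctrl_2_drought_2 has an adjusted p under 0.05 for 10 of the 17 rows, where 10.2% of the rows with a p are under it. All 17 log2 fold changes in the authors' deposited table are negative there. The comparison ctrl_1_drought_1 of the authors' deposited table gives an adjusted p for 5 of the 17, with 0 under 0.05 (1.89% of the rows with a p), and after_3_ctrl_3 for all 17, with 0 under 0.05 (0.022% of the rows). The table rests on the libraries that chose the rows, and the direction in which it codes a fold is not stated in its header, so nothing is read from these counts.

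With the same limits, 2 rows were high on 23 May in both arms alone and 393 were high on 6 June in dried trees alone, while 55 were low in the 3 groups in which the 17 were high. These counts are a description of the limits applied to other sets of groups, without a test.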

How the data were processed

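Branch RNA was measured by poly-A sequencing in 24 libraries. The submitters' processing notes name RSEM, Bowtie2, cutadapt, limma and DESeq2. Versions, genome build and strand setting are not given in the sources used here. As deposited by the authors, the first table holds expected counts of 50663 rows, which are not whole and were rounded before testing. The second deposited table holds signal values for 31870 rows, each equal to the rounded count times 1 constant per library. Another deposited table holds the authors' comparisons, as log2 fold change and adjusted p-value. The columns of the 3 comparisons named above were used from it.

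Members were chosen on log2(scaled value + 1) as described. The members, lists and settings were chosen with earlier results of these data known. Named IDs followed extremes of gap, level, spread and difference. The ranks set around a limit of 150 rows do not exist among 17, so the rows next to the gap limit stand in their place, and every member is named. The test was the quasi-likelihood one of edgeR 4.0.16 (R 4.3.3), with TMM scaling, filterByExpr by group and 1 mean per group over all 24 libraries, with Benjamini-Hochberg adjustment over 29107 rows and a threshold of 0.05. The standard error of a log2 fold change was its size divided by the root of F. Tested alternatives used DESeq2 1.42.0 and limma 3.58.1. The fit was tested on simulated data.

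The tree pairs libraries between days, since the same trees were sampled. Within a tree, the libraries' deviations from their group means correlated at an average r of -0.08 to 0.19 per tree. Nothing says that the trees came from separate stocks, so p-values weigh differences against the spread among libraries of these trees only. The main edgeR fit did not use the pairing and treats the libraries of a tree on different days as independent. No 2 libraries held identical counts.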

Additional observations from a re-analysis of the deposited data

Results flagged for a closer look

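The change from 7 May to 6 June differed between the arms for 5 of the 17 rows by an edgeR test of the difference itself, all with a positive interaction, where 0.876% of all rows were called positive. They were Oeu050488.1 (log2 interaction 5.44 ± 1.23), Oeu019995.2 (10.23 ± 2.42), Oeu032431.1 (6.88 ± 1.64), Oeu051930.1 (9.14 ± 2.19) and Oeu004093.1 (6.56 ± 1.60, SE, n = 3 trees per group), with edgeR adjusted p from 0.0479 to 0.0491. The choice of the rows used these groups, so the count supports nothing about them. All 5 were at a level of 9.69 or more in watered tree 9 on 7 May. Without that library edgeR called 0 of 17 and 0 of 30479 rows, and DESeq2 called 3 of 17, where it called 0.485% of all rows positive. Once the tree was a block edgeR called 0 of 17 and 0 of all rows.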

How the results depend on the processing

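The limits were applied again under other settings, and edgeR counts were repeated. With the mean over the 3 trees in place of the median 7 of the 17 rows and 0 named rows met the limits. With totals free of the abundant rows 11 of the 17 did, and 2 had no overlap between all high-set and other libraries, as without the 7 May library of watered tree 9 (2). Without the 23 May library of watered tree 9, 66 rows met the limits, 10 of the 17 and 2 named ones among them. Without that of tree 3, 5 rows met them, 3 of the 17 and 0 named. Without the dried 23 May library of tree 8 and the dried 6 June library of tree 4, which have the fewest counts outside the abundant rows, 8 of the 17 and 0 named rows met them. With each tree left out 1 to 84 rows met the limits (1 without tree 3, 84 without tree 9), 1 to 10 of the 17 and 0 to 2 named rows, and 1 to 6 of the 17 did not overlap. The share of all rows without overlap is not given for the changed totals or with a tree left out. Nothing is read from those counts of overlap.

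Calls are given as counts of the 17. Dried against watered on 6 June (0) gave 5 with no filter, 12 without the 7 May library of watered tree 9, 4 with limma on the scaled values, 13 with DESeq2 and 15 with DESeq2 without that library, and over all rows (30) it gave 546, 3405, 890, 3990 and 5620. 23 May against 7 May in dried trees (2) gave 4, 7, 4, 8 and 13 in the same order, and over all rows (42) 486, 1467, 449, 2503 and 3885. 6 June against 7 May in dried trees (2) gave 4, 12, 6, 13 and 15, and over all rows (316) 701, 3461, 751, 4203 and 6246. 23 May against 7 May in watered trees (1) gave 2 with DESeq2 size factors, 2 with no filter, 0 without the library, 7 with DESeq2 and 12 with DESeq2 without the library, and over all rows (6) 26, 10, 2, 1705 and 1346. The interaction to 6 June (5) gave 0 without the library, 0 with limma, 12 with DESeq2 and 3 with DESeq2 without the library, and over all rows (310) 0, 0, 2820 and 702. 6 June against 23 May in watered trees (0) gave 6 and 9 with DESeq2 with and without the library, and over all rows (0) 110 and 291. DESeq2 called 5 on 29 July and 4 on 6 June against 7 May in watered trees, and 719 and 470 of all rows. DESeq2 without that library was added after seeing the data. With each tree left out the ranges were 0 to 9 (dried against watered on 6 June), 0 to 7 and 0 to 14 (23 May and 6 June against 7 May, dried), 0 to 0 (23 May against 7 May, watered), 0 to 15 (29 July against 6 June, dried), 0 to 8 (interaction to 6 June) and 0 to 1 (interaction to 23 May). The paired analysis, with the tree as a replicate block, gave 0 for 23 May against 7 May in watered trees, 0 for 6 June against 7 May in dried trees, 7 for 29 July against 6 June in dried trees and 0 for the interaction to 6 June, and moved no other count by over 1.5 times. Calls over all rows are not listed here for the fits with a tree left out or the paired fits. Nothing is read from their counts. In all 196 alternative values were within 1.5 times of the reported one and 92 were not. The cause of these moves was not tested. A level of 5 rested on 5.68 to 93.8 counts per library, which limits the precision.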

Other observations

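A further 16 rows with IDs met the limits on gap and level but had a range of 1.5 or more within the high set. Watered 23 May was the lowest of the 3 high-set groups in 13 of them and dried 6 June in 3, while dried 23 May and dried 6 June were each the highest in 8. Among the 17 rows watered 23 May was the lowest of the high set in 15. Another 18 rows met the limits on gap and range but not on level.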
